A study of Mus musculus with 2 samples.

Results

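The genes described here were grouped as enzymes that modify transfer RNA (tRNA), the adaptor that pairs codons with amino acids. They were chosen as a list of 45 genes, and every probe whose gene symbol in the platform annotation is one of them was taken. That gave 90 probes for 43 genes, of 45281 probes and 19057 named genes in all. Pus7, a pseudouridine synthase, and Trmt13, a ribose methyltransferase, had no named probe here. The study hybridised bone marrow RNA (femur, mice aged 8 days) to Illumina bead arrays, with 1 wild type array and 1 array of Dnmt2-/- marrow. Dnmt2, whose symbol is Trdmt1, is itself a tRNA cytosine methyltransferase, so most genes described below belong to the same machinery as the mutated one. Nsun4 and Nsun5 are on the list too, although the substrate given for them below is ribosomal RNA. The labels give no strain, sex, allele or number of animals behind each RNA.

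Transfer RNA is the most heavily modified class of RNA. Modifications in the anticodon loop, above all at the wobble position and at the adenosine next to the anticodon (A37), tune codon reading, while those in the D and T arms and the variable loop support folding and stability. Many of the enzymes work as pairs of a catalytic and a helper subunit. Blood formation places a high demand on translation, and several of these enzymes act in mitochondria, where the modified tRNAs serve the synthesis of respiratory chain subunits.

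There was 1 array per genotype label, so no test, error or p-value for a difference exists, and each value describes these arrays rather than the genotypes. Signals are the deposited intensities, given first for the array labelled wild type and then for that labelled Dnmt2-/-. The fitted background was 90.9 and 94.9 units and the median signal 95.1 and 100.2 units, so near background equal signals on both arrays give a ratio below 0. A log2 ratio is the difference of background-corrected, quantile-normalized log2 intensities, positive where the array labelled Dnmt2-/- was higher after these steps. Bright probes too could have the higher raw signal on that array and a ratio below 0, such as Osgep (1010.8 and 1078.7, -0.08). Detection means a detection p-value under 0.01 here, and a gene is represented by its probe with the highest mean.

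The knocked-out gene did not settle the labels. The 4 Trdmt1 probes gave signals of 112.4 and 148.8, 106.0 and 107.6, 97.1 and 118.2, and 84.1 and 113.3. Of these, 2 were detected on both arrays, with log2 ratios of 0.62 and -0.27, and the others were detected only where the label says Dnmt2-/-. How these probes lie relative to the mutation is not analysed here. Xist was detected only on the array labelled wild type (822.7 and 92.8) and Y-linked Eif2s3y only on the other (89.8 and 466.8), so sex-linked signal and genotype label cannot be told apart. Markers of marrow lineages were present on both. Their summed signals were 79545 and 83859 for 7 erythroid genes, 77407 and 69820 for 7 neutrophil genes, 9793 and 10283 for 4 B cell genes, and 5341 and 4715 for 6 macrophage genes. Markers of neighbouring tissues were higher on the array labelled Dnmt2-/-, with sums of 976 and 2531 for 6 cartilage genes, 21211 and 30278 for 6 bone genes and 8099 and 15529 for 8 skeletal muscle genes. Median log2 ratios over the genes detected on both arrays were 0.10 for the erythroid list (4 of 6 higher), -0.12 for neutrophils (1 of 7), -0.70 for macrophages (0 of 5), 0.01 for B cells (2 of 4), 1.63 for cartilage (4 of 4), 0.71 for bone (5 of 6) and 0.93 for muscle (8 of 8). Of the markers with a probe, Epb42 (erythroid) and Matn3 (cartilage) were detected on neither array. The part of cell makeup in the values below was not tested, and in whole marrow fewer cells of a type and less RNA per cell cannot be told apart.

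Of the 43 genes, 35 were detected on both arrays, 1 on the array labelled wild type only (Adat1), 1 on the other only (Trmt44) and 6 on neither (Nsun3, Nsun6, Trmt5, Trmt11, Elp4 and Tyw3). For all 19057 named genes the same counts were 9746, 666, 1026 and 7619. Among the 35, 1 gene, Cdk5rap1, was at least 1.5-fold lower on the array labelled Dnmt2-/- and 0 were at least 1.5-fold higher. Over all 9746 genes detected on both arrays, 5.16% passed 1.5-fold lower and 6.61% passed 1.5-fold higher. The median log2 ratio of the 35 genes was -0.11, with 14 above 0 and 21 below, beside -0.02 for all genes. Without Cdk5rap1 the ratios ran from -0.49 to 0.43 with a median of -0.10. Within 1.5-fold lay 97.1% of the members and 88.2% of all genes, and within 1.2-fold 60.0% and 55.8%. At the level of probes, 55 of 90 were detected on both arrays, beside 14487 of all 34885 probes with 1 symbol. Among the 55, 2 were at least 1.5-fold lower (both of Cdk5rap1) and 1 at least 1.5-fold higher (Pus10), beside 5.11% and 6.32% of the 14487. The plot of all probes by chemistry shows the spread within and between genes.

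**Figure D1:**
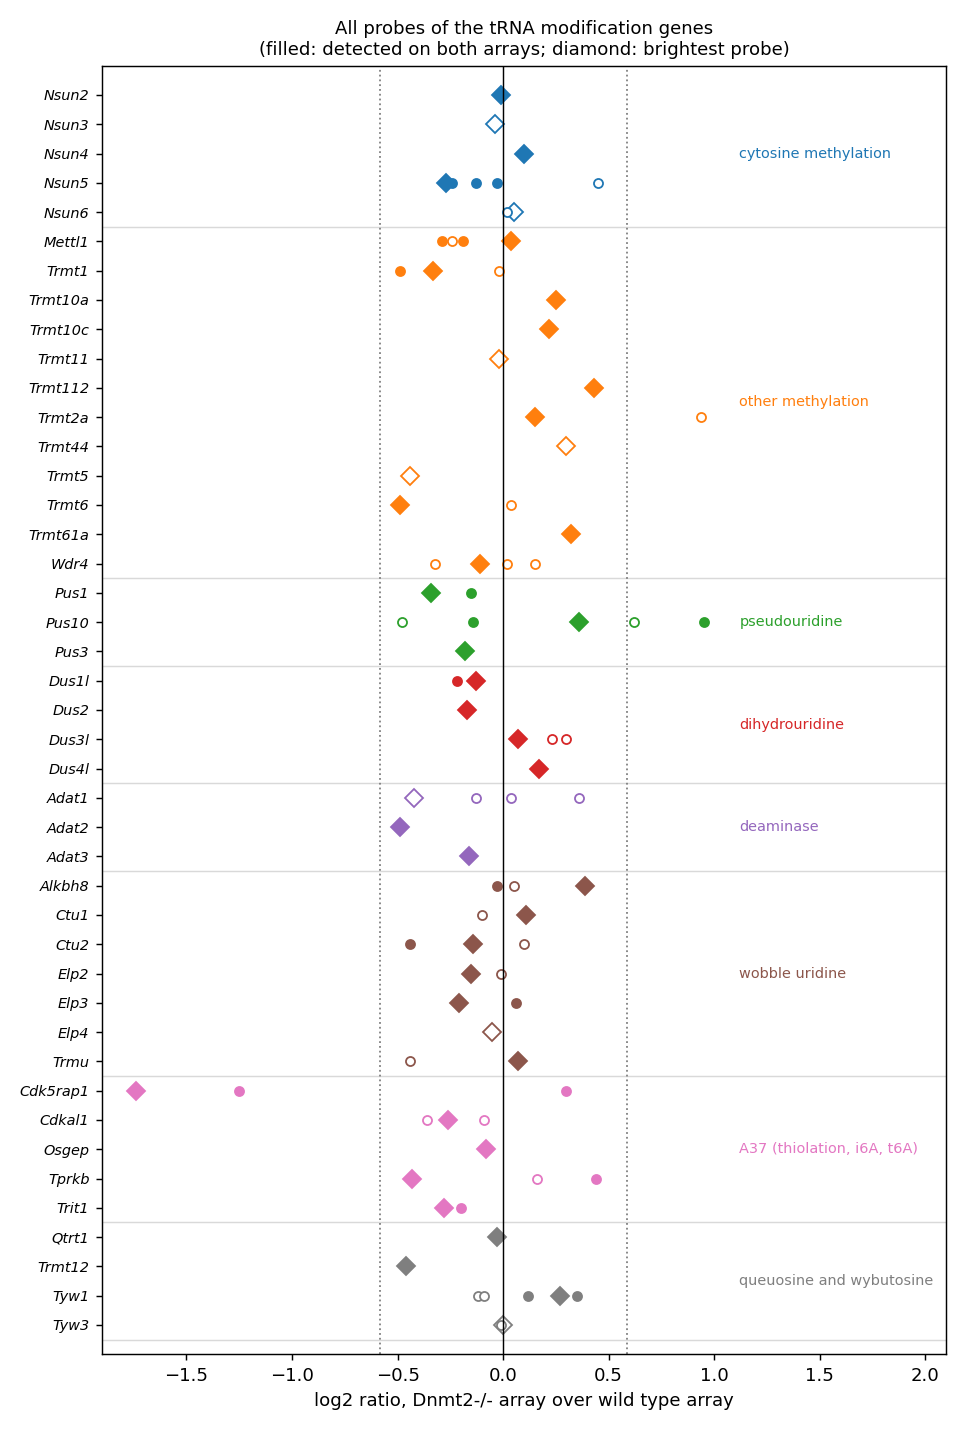
Log2 ratio of every probe (x axis) for each of the 43 genes (y axis), grouped and coloured by chemistry; filled symbols were detected on both arrays, diamonds mark the probe that represents the gene, and dotted lines mark 1.5-fold. Of the genes detected on both arrays, Cdk5rap1 alone has a diamond beyond the dotted lines.

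The genes acting on A37 held that exception. Cdk5rap1 adds a methylthio group to isopentenylated A37 of mitochondrial tRNAs, and by its representing probe, in the processing reported, its ratio was the lowest of the 9746 genes detected on both arrays. Probe ILMN_1249441 gave signals of 276.5 and 153.8, a log2 ratio of -1.74 (3.33-fold lower). A second probe, ILMN_2602821, gave 242.8 and 167.5, a log2 ratio of -1.25 (2.37-fold lower). The remaining probe, ILMN_2604985, lay closer to background at 109.5 and 129.5, with a log2 ratio of 0.30. The first pair thus read lower and the dim probe higher on the array labelled Dnmt2-/-. At 2-fold lower, the background was 0.544% of genes. The size depended on the processing. Over the 6 settings tried (the one reported, no background correction, a larger offset, median scaling, cyclic loess and the authors' values), the first probe ran from -1.74 to -1.06, or 3.33-fold to 2.08-fold lower, and the second from -1.25 to -0.76. The rank of the gene from the lowest ran from 1 to 4 over these settings. Averaged over its 3 probes, Cdk5rap1 was 1.86-fold lower and ranked 70 of 9766 genes averaged in the same way. Probe sequences were not available to place these probes along the transcript, and which isoform each reads was not analysed here.

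The other A37 enzymes lay within 1.5-fold. Cdkal1, the paralogue that methylthiolates threonylcarbamoyl-A37 of a cytosolic lysine tRNA, gave 143.4 and 150.8 (log2 ratio -0.26), and its other 2 probes were detected on neither array. Trit1, which attaches the isopentenyl group that Cdk5rap1 then modifies, gave 206.4 and 215.9 (-0.28) and, in a dimmer probe, 109.7 and 113.9 (-0.20). The substrate-forming and the thiolating enzyme of that modification therefore differed in size, at -0.28 and -1.74, with no error on either. Osgep and Tprkb belong to the KEOPS complex that makes threonylcarbamoyl-A37. Osgep, its catalytic subunit, gave 1010.8 and 1078.7 (-0.08). Tprkb was read in opposite directions, with 227.0 and 221.0 (-0.43) in one probe and 103.5 and 123.6 (0.44) in another. All 5 A37 genes had a ratio below 0 in their representing probe, with a median of -0.28. That sign rested on the scaling, since with median scaling Osgep was at 0.03 and Cdkal1 at 0.00.

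**Figure D2:**
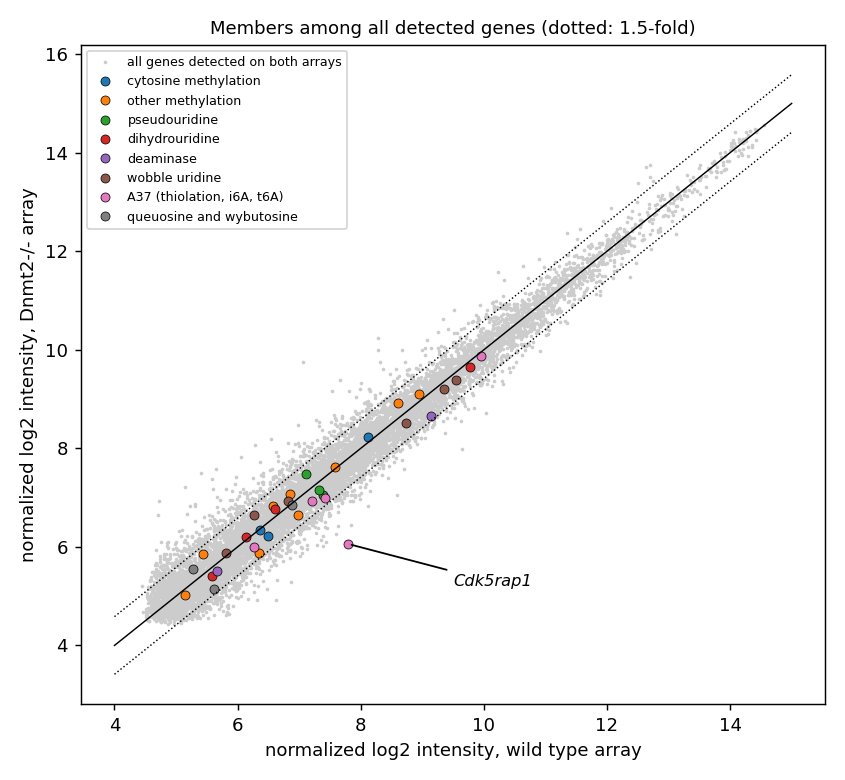
Normalized log2 intensity on the array labelled wild type (x axis) against that labelled Dnmt2-/- (y axis) for the 9746 genes detected on both (grey) and the 35 tRNA modification genes (coloured by chemistry). The solid line marks equality and dotted lines 1.5-fold; Cdk5rap1 lies well under the lower line and the other members between the lines.

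For Cdk5rap1, the gene with the outlying ratio, its paralogue Cdkal1 and Trmt61a, whose window matched 2 of the motifs searched, the promoter windows of RefSeq (GRCm38.p6) are shown, each running from 250 bases before to 50 after a transcript start. Capitals mark motif matches, and all 3 are written 5′ to 3′ on the gene's strand. The windows are chr2:154372670-154372969 (minus strand), chr13:29855624-29855923 (minus strand) and chr12:111677855-111678154 (plus strand).
Cdk5rap1: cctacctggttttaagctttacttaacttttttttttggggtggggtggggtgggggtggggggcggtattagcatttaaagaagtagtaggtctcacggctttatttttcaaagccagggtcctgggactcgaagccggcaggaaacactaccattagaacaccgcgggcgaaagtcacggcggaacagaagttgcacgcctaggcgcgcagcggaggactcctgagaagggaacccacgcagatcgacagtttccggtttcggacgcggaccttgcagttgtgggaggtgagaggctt
Cdkal1: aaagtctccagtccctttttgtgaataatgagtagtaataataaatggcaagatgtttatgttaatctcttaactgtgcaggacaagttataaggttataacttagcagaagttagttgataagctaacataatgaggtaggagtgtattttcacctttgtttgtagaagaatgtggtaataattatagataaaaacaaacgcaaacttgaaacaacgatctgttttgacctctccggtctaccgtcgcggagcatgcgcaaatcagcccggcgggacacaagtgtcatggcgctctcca
Trmt61a: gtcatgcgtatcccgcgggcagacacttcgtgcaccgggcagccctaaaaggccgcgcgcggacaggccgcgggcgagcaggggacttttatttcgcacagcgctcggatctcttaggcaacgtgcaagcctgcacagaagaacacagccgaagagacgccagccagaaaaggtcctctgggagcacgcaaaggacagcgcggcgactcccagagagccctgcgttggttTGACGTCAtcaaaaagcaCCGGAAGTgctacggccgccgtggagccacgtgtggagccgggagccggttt
The Cdk5rap1 window held 19 CpG dinucleotides at 54.7% GC, the Cdkal1 window 10 at 39.0% and the Trmt61a window 31 at 63.0%.

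Such windows were found for 38 of the 45 genes, 49 windows in all, and not for Adat1, Elp2, Elp3, Nsun5, Trmt1, Trmt6 and Trmt12. Their median was 21 CpG per 300 bases (lowest 2, highest 44) and 59.0% GC, beside 7 CpG and 52.7% GC over all 32851 windows of the table. Motifs were searched on both strands by exact letters. The ETS motif CCGGAAGT was in 18.4% of member windows and 3.89% of all windows, and among windows with at least 10 CpG in 20.9% and 7.81%. The cyclic AMP response element TGACGTCA was in 10.2% and 1.79%, and among the CpG-rich windows in 11.6% and 3.37%. It occurred in Dus2, Pus10, Trmt5, Trmt61a and Tyw1. The NRF1 motif was in 8.16% and 4.6%, and among CpG-rich windows in 9.3% and 10.3%. The letters CCAAT were in 34.7% and 37.4%, TATAAA in 4.08% and 13.6%, and the ATF4-type element TGATGNAAT in 2.04% (1 window, of Pus7) and 0.965%. Among CpG-rich windows CCAAT was in 30.2% and 35.7%, TATAAA in 2.33% and 5.63%, and TGATGNAAT in 2.33% (the same window) and 0.301%. The Cdk5rap1 and Cdkal1 windows held none of these motifs. A match is a string of letters and not evidence of binding.

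Of the 38 genes with a window, 15 (39.5%) had a gene on the opposite strand starting within 1000 bases in a head-to-head arrangement, against 12.3% of the 27025 genes in the table. These shares were not matched for CpG content. Cdk5rap1 was not among the 15 genes. In 6 of these pairs both genes were detected on both arrays. Osgep was at -0.08 and its partner Apex1, a DNA repair endonuclease 56 bases away, at 0.08. Trmt2a was at 0.15 and Ranbp1, a partner of the nuclear transport GTPase Ran, at 0.00. Ctu2 and Rnf166 were at -0.14 and -0.18, Pus10 and Pex13 at 0.36 and -0.13, Tprkb and Nat8f1 at -0.43 and 0.14, and Pus3 and Ddx25 at -0.18 and -0.80. Of these pairs, Pus3 and Ddx25 had the log2 ratios farthest apart.

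Cytosine methyltransferases of the NSUN family, which put a methyl group on the same base as Dnmt2, showed small ratios. Nsun2, which methylates the variable loop of many tRNAs, gave 148.0 and 170.0 (log2 ratio -0.01). Nsun4, a mitochondrial enzyme whose known substrate is ribosomal RNA, gave 327.6 and 407.6 (0.10). Nsun5, which methylates the large ribosomal RNA, had 5 probes, of which 4 were detected on both arrays. Their signals ran from 108.3 to 155.1 and from 116.6 to 162.7, with ratios of -0.27 to -0.03. The fifth Nsun5 probe was detected only where labelled Dnmt2-/- (93.6 and 107.8, at least 1.3-fold higher). Nsun3, which acts on mitochondrial methionine tRNA, was not detected (91.3 and 94.0), nor was Nsun6, which acts on the acceptor end (89.9 and 95.8, and 85.1 and 90.5 in its second probe). For the probes of Nsun2, Nsun4 and Nsun5 detected on both arrays, the ratios stayed between -0.27 and 0.31 over the 6 settings.

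The other methyltransferases had the highest class median, 0.15 over 9 genes, with 6 above 0. Trmt112, the small activator subunit shared by several methyltransferases, gave 114.3 and 143.7 (log2 ratio 0.43). Its partner Trmt11, which methylates a guanosine near the D arm, was not detected at 87.2 and 89.0. A further partner, Alkbh8, which modifies wobble uridine, gave 143.4 and 191.4 (0.39) and, in another probe, 114.8 and 125.6 (-0.03). Trmt61a and Trmt6 form the enzyme for methyladenosine of the T loop. Trmt61a, the catalytic subunit, gave 433.1 and 610.7 (0.32). Trmt6 gave 147.9 and 144.0 (-0.49), and its second probe was detected on neither array (89.9 and 95.6). By their representing probes, the 2 subunits lay on opposite sides of 0. That difference in sign was present in each of the 6 settings, with Trmt61a from 0.27 to 0.50 and Trmt6 from -0.49 to -0.23.

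Mettl1 and Wdr4 make methylguanosine of the variable loop. The catalytic subunit Mettl1 gave 247.8 and 298.2 (0.04), 248.1 and 269.0 (-0.19), and 121.9 and 125.4 (-0.29), while its remaining probe was not detected. Wdr4 gave 107.8 and 113.8 (-0.11), and its remaining 3 probes lay near background and were each detected on at most 1 array, at 92.2 to 101.1 and 97.3 to 103.9. The pair thus showed no ratio beyond 1.5-fold in any probe.

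Trmt10a, which methylates a guanosine between the acceptor and D stems, gave 159.6 and 206.0 (0.25). Trmt10c, its mitochondrial relative and a subunit of mitochondrial RNase P, gave 177.7 and 230.5 (0.22). Trmt1, the dimethylguanosine enzyme, went the other way with 186.9 and 191.0 (-0.33) and 117.1 and 114.2 (-0.49). Trmt2a, which makes methyluridine of the T loop, gave 527.2 and 672.4 (0.15), and a second probe was detected only on the array labelled Dnmt2-/- (88.9 and 115.9, at least 1.63-fold higher). Those 2 Trmt2a probes carry different RefSeq transcripts in the annotation. Trmt44, a ribose methyltransferase characterised in yeast, was at the edge of detection (93.1 and 104.1, at least 1.15-fold higher), and Trmt5, which methylates the guanosine next to the anticodon, was not detected (97.5 and 87.9).

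Pseudouridine synthases included the gene whose probes varied most after Cdk5rap1. Pus10, which acts on the T loop, had 5 probes. The probe with the highest mean gave 197.4 and 277.8 (log2 ratio 0.36), another gave 203.3 and 227.2 (-0.14), and a dim one gave 98.3 and 130.4 (0.95, 1.93-fold higher). One more was detected only where labelled Dnmt2-/- (91.7 and 109.7, at least 1.38-fold higher), and the fifth on neither array (99.2 and 93.4). The dim probe ran from 0.29 without background correction to 1.07 with median scaling. Pus1, which serves cytosolic and mitochondrial tRNAs, gave 224.0 and 228.3 (-0.34) and 126.0 and 135.3 (-0.15). Pus3, which modifies the anticodon stem, gave 218.4 and 239.5 (-0.18).

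Over the 14 genes with at least 2 probes detected on both arrays, 6 had probes on opposite sides of 0. The same count was not made over all genes. The widest ranges were those of Cdk5rap1 (2.04 on the log2 scale), Pus10 (1.08) and Tprkb (0.87), and the narrowest that of Elp2 (0.01). The pooled SD between probes of one gene was 0.42 for these 14 genes and 0.29 for 3375 genes of the whole array. The value for the 14 includes the wide range of Cdk5rap1 and was not computed without it, so it does not describe the other members. The pooled SD compares probes on the same RNAs and is no error between animals. In the plot of signals by probe, the dimmest lines lie along the fitted background.

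**Figure D3:**
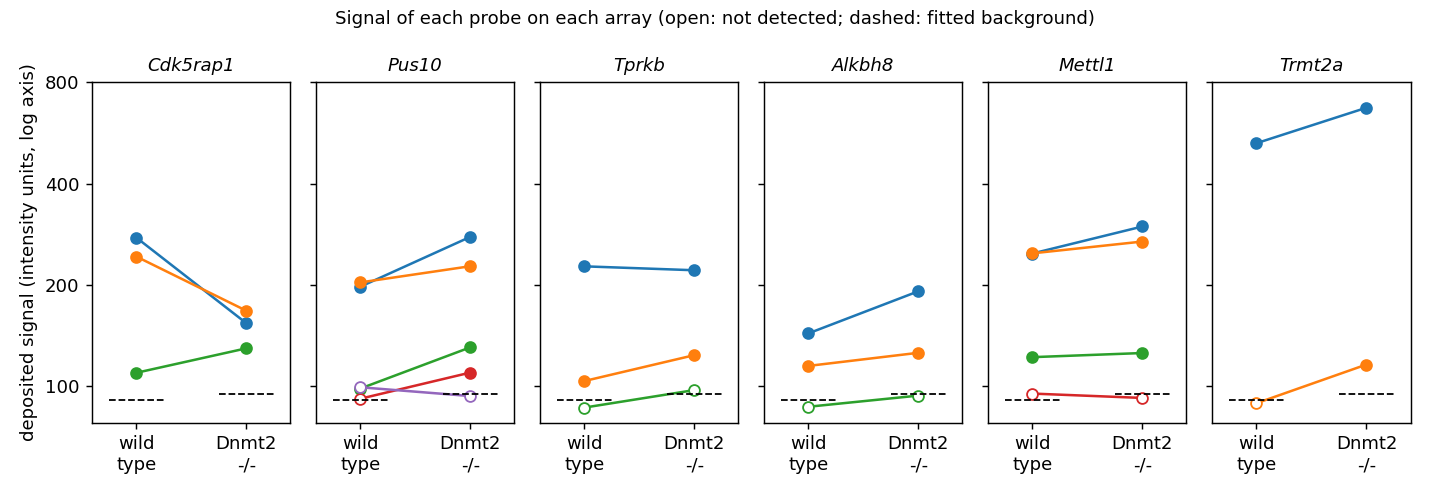
Deposited signal of each probe (y axis, intensity units, log axis) on each of the 2 arrays (x axis, wild type label at left) for 6 genes with several probes; each coloured line is a probe, open symbols were not detected and dashed lines are the fitted background of 90.9 and 94.9. The upper pair of Cdk5rap1 lines runs from 276.5 and 242.8 to 153.8 and 167.5, while its dim line runs from 109.5 to 129.5.

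Dihydrouridine synthases, which reduce uridines of the D loop or, for Dus3l, of the variable loop, had ratios from -0.17 to 0.17 over 4 genes, the smallest SD over genes of any class (0.16). Dus1l gave 899.8 and 930.4 (-0.13) and 659.8 and 668.6 (-0.22). Dus2 gave 118.7 and 125.8 (-0.17), Dus3l 137.4 and 161.6 (0.07) and Dus4l 161.2 and 201.4 (0.17). Another 2 Dus3l probes lay near background, one of them detected only on the array labelled Dnmt2-/- (97.7 and 109.7).

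Adenosine deaminases convert adenosine to inosine in tRNA. Adat2, the catalytic subunit of the wobble enzyme, gave 598.5 and 521.5, with the lower raw signal on the array labelled Dnmt2-/-. Its log2 ratio was -0.49 (1.4-fold lower), from -0.49 to -0.31 over the 6 settings. Its partner Adat3 gave 121.0 and 128.7 (-0.16). Adat1, which acts next to the anticodon of alanine tRNA, had 4 probes at 85.9 to 99.3 and 94.7 to 101.7, and 1 of them passed the detection threshold on the array labelled wild type.

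Wobble uridine enzymes had ratios from -0.21 to 0.39 over 6 genes, with 3 above 0. Elongator adds the first side chain to the base. Elp3, its catalytic subunit, gave 463.6 and 479.5 (-0.21) and 406.1 and 491.8 (0.06). Elp2, a scaffold subunit, gave 682.4 and 717.0 and 484.2 and 519.1, both at -0.15, and Elp4, of the accessory ring, was not detected (88.5 and 88.8). Ctu1 and Ctu2 then thiolate the base in the cytosol. Ctu1 gave 175.3 and 215.2 (0.11). Ctu2 gave 768.8 and 806.8 (-0.14) and 182.3 and 178.9 (-0.44). Trmu, which thiolates mitochondrial wobble uridine, gave 125.2 and 144.4 (0.07), and its second probe was not detected (97.6 and 88.8).

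Qtrt1, the catalytic subunit that inserts queuine at the wobble position, gave 180.2 and 208.9 (-0.03). Wybutosine, a tricyclic base of phenylalanine tRNA, is built in steps by Tyw1, Trmt12 and Tyw3. The 3 Tyw1 probes detected on both arrays gave 110.7 and 130.3 (0.27), 102.7 and 119.4 (0.35), and 99.1 and 107.4 (0.12). Trmt12 gave 119.3 and 117.2 (-0.46), and Tyw3 was not detected in either of its probes. Each detected wybutosine gene lay close to background, and each was within 1.5-fold.

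Of 9 members listed here as acting wholly or partly in mitochondria, 7 were detected on both arrays. They had a median log2 ratio of -0.01, with 3 above 0, and a range from -1.74 (Cdk5rap1) to 0.22 (Trmt10c). The 28 detected members outside that list had a median of -0.12 and a range from -0.49 to 0.43. The list was not checked to be complete, so the 28 may include enzymes that also act in mitochondria. The medians therefore do not separate the compartments.

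Of 50 further genes of tRNA modification, 42 had a named probe and 36 were detected on both arrays, with a median log2 ratio of -0.02. At least 1.5-fold, 5 were higher (13.9%) and 3 lower (8.33%), beside 6.61% and 5.16% of all genes. Cytidine methylation of the anticodon loop was represented on both sides. Mettl6, which methylates serine tRNA, gave 193.6 and 352.4 (0.90, 1.86-fold higher). Mettl8, a mitochondrial relative, gave 129.9 and 120.8 (-0.67), and Dalrd3, a helper of Mettl2 for arginine tRNA, gave 204.6 and 185.8 (-0.62). Mettl2 itself gave 424.0 and 478.8 (-0.06) and 189.0 and 234.5 (0.11). The others at least 1.5-fold higher were Trdmt1 (0.62), Dtwd1 (0.63; 256.9 and 421.8), Trmt1l (0.61; 542.9 and 908.0) and Trmo (0.61; 149.7 and 222.5), each by its representing probe. Other probes were lower in ratio, at 0.33 for Trmt1l, which also had a probe detected only on the array labelled wild type (97.6 and 98.4), and at 0.34 and -0.14 for Trmo. Thada, a helper of the ribose methyltransferase Ftsj1, was lower at 116.3 and 107.9 (-0.71), close to background. Over the 6 settings Mettl6 ran from 0.63 to 1.14, Trdmt1 from 0.25 to 0.83, Trmt1l from 0.53 to 0.76, Dtwd1 from 0.48 to 0.85, Trmo from 0.35 to 0.87, Dalrd3 from -0.62 to -0.35, Mettl8 from -0.67 to -0.26 and Thada from -0.72 to -0.23. Of these 8, Mettl6 alone stayed past 1.5-fold in each setting, by its representing probe. Its second probe was detected on neither array (88.1 and 94.6), and nor were the other probes of Mettl8 and Thada.

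**Figure D4:**
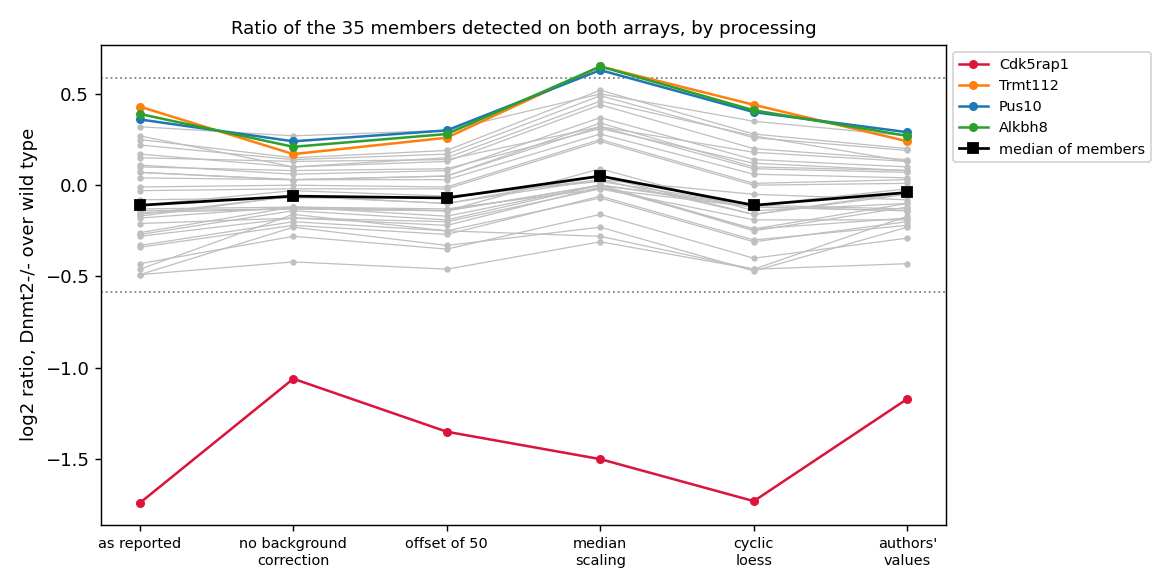
Log2 ratio (y axis) of the 35 members detected on both arrays under 6 settings of processing (x axis), each line a gene; black squares are their median and dotted lines mark 1.5-fold. Cdk5rap1 runs from -1.74 to -1.06, and with median scaling Trmt112, Alkbh8 and Pus10 pass the upper line.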

How the data were processed

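Total RNA of marrow (200 ng) was amplified to cRNA carrying biotin for Illumina MouseWG-6 v2.0 arrays, per the labels' protocols. The deposited non-normalized table gives each probe an intensity and a detection p-value on each array, with background not subtracted. The scanner is not named. A second deposited table holds intensities normalized by the authors, on a linear scale, by an unstated method. It leaves 1071 probes blank and was used only as an alternative, its medians being 101.8 and 101.1.

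Background was corrected with normexp (limma 3.58.1, R 4.3.3), with its mean and SD (3.16 and 3.43) inferred from the detection p-values. An offset of 16 was added, then log2 and quantile normalization over all probes were applied. The offset shrinks folds, most for dim genes. Where a probe was detected on 1 array, the dimmer value was raised to that array's lowest detected value if it lay under it ("at least N-fold"). The steps were tested on simulated arrays in which only probes well above background were given a change. Recovery of a change in dim probes was therefore not tested.

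Names came from the platform annotation: 34885 probes had 1 symbol, 18 several and 10378 none, and 34807 Entrez identifiers matched RefSeq (GRCm38.p6), with 0 symbols updated. At a detection p-value below 0.01, 41.4% and 43.2% of probes were detected. The number of arrays limits the precision. No test was run, with 1 array per group. All members are named, and of the further pathway genes Trdmt1 and those past 1.5-fold. Members, gene lists and motifs were chosen with earlier results of these data known.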

Additional observations from a re-analysis of the deposited data

How the results depend on the processing

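The count of members at least 1.5-fold lower was 1 (Cdk5rap1) under each alternative: no background correction, an offset of 50, median scaling, cyclic loess, the authors' values, means over probes and detection at 0.05. The count at least 1.5-fold higher was 0 except with median scaling, where it was 3 (Alkbh8, Pus10 and Trmt112). That scaling moved the median of all genes from -0.02 to 0.14, and 24 of 35 members lay above 0 instead of 14. Over all genes, counts higher and lower were 644 and 503, but 1340 and 180 with median scaling, 294 and 189 with an offset of 50, 186 and 105 without background correction and 220 and 121 in the authors' values. The median of members ran from -0.11 to 0.05. The number detected on both arrays was 35 at either detection threshold. Of 275 recomputed ratios of 55 probes, 12 moved by more than the SD between probes. Only 2 Cdk5rap1 probes and 1 Pus10 probe were past 1.5-fold, and 0 of these changed sign. Among all 55 probes, the sign changed for 14 with median scaling, 3 in the authors' values and 1 with cyclic loess. Most of the 12 belonged to Cdk5rap1 (5) and the dim Pus10 probe (3). No paired analysis was possible because each group holds 1 array. Signal close to background limits the wybutosine genes, Wdr4, Adat1, Trmt44 and the dim probes.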

Other observations

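The RefSeq span of Cdk5rap1 on chromosome 2 overlaps those of Bpifb5, Bpifb9a and Bpifb9b, of which Bpifb5 (88.6 and 99.0) and Bpifb9a (90.6 and 96.0) were detected on neither array. Among the neighbours beyond, Bpifb1 (92.5 and 102.0) and Necab3 (92.1 and 91.0) were not detected. Cbfa2t2, a transcriptional corepressor, was detected only on the array labelled wild type (104.4 and 98.9). Its log2 ratio was -0.62, with both signals close to background. Apart from Cdk5rap1 itself, no coding gene with a named probe within 6 places of it was detected on both arrays, so the low ratio could not be set against a neighbour's.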
